A study of Mus musculus with 8 samples.

Results

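NADPH oxidases are enzymes that pass electrons from NADPH across a membrane to oxygen and so make superoxide or hydrogen peroxide. The set described here is 9 mouse genes of this enzyme family, chosen by name: the catalytic subunits Nox1, Nox4, Cybb and Duox2, the membrane partner Cyba, the cytosolic regulators Ncf1, Ncf4 and Noxo1, and the GTPase Rac2. Their transcripts were read on Affymetrix 3' expression arrays as every probe set whose only listed gene symbol was a member. By that rule 6 of the 9 genes were measured, by 10 probe sets among 45037. Nox1 was listed only on 3 probe sets that carry a further gene symbol, and Ncf1 and Duox2 had no probe set under their symbols, so these 3 genes were not analysed here. Apart from Cyba, which the epithelial and phagocyte enzymes share, only Noxo1 was therefore measured of the subunits known from gut epithelium. The subunits taken for the phagocyte side were Cybb, Ncf4 and Rac2.

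The knockout group was 4 ileum samples from male Slc51a knockout mice and the control group was 4 from male wild-type mice, all on a C57BL/6 background, about 2 months old and fasted for 4 h, with 1 array per sample. Slc51a encodes a subunit of the transporter by which bile acids leave the enterocyte across its basolateral membrane. How the knockout allele was made, and whether wild-type animals were littermates, is not given in the sources used here. The comparison asks which oxidase transcripts differ when this transporter subunit is inactivated, and whether epithelial and phagocyte subunits differ alike.

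In phagocytes, Cybb (also called Nox2) and Cyba form the membrane core, and cytosolic proteins such as Ncf1 and Ncf4 and a Rac GTPase join it on activation to release superoxide onto engulfed microbes. Loss of this enzyme in humans causes chronic granulomatous disease. In intestinal epithelium a related enzyme is built from Nox1 and Cyba with the organiser Noxo1 and the activator Noxa1, and Duox2 with its maturation factor Duoxa2 releases hydrogen peroxide at the luminal surface.

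Signals are given on the log2 scale, where 1 unit is a doubling. Each difference is the knockout mean less the wild-type mean, over 4 arrays of each genotype. Its standard error (SE) is the moderated one of limma, in which the variance of each gene is drawn towards that of all genes. Adjusted p values come from limma with Benjamini-Hochberg adjustment over 17097 genes, and a gene rose or fell where its adjusted p was below 0.05. The Slc51a probe set lay between 4.50 and 4.68 in knockout arrays and between 11.29 and 11.41 in wild-type arrays, and array medians were 4.56 to 4.60. The tissue label was checked on ileal and epithelial markers. Fabp6, which binds bile acids inside ileal enterocytes, had a signal of 13.18 ± 0.03 in knockout and 13.11 ± 0.02 in wild type (SD, n = 4 each), and Epcam, an epithelial adhesion protein, at 12.50 in knockout and 12.62 in wild type. Slc10a2, the bile acid uptake transporter of the ileal brush border, was at 10.97 in knockout and 11.42 in wild type and fell (-0.45, SE 0.07, adjusted p = 0.000528). The 3' minus 5' signal of Gapdh, a sign of RNA integrity, was 0.06 to 0.21 in knockout and 0.18 to 0.34 in wild-type arrays, and that of actin 0.42 to 0.47 in knockout and 0.38 to 0.47 in wild-type arrays. The part of this in the results was not tested. The mean of the hybridization controls was lowest on knockout replicates 3 and 4 and wild type replicate 2 (8.74, 8.86 and 8.83, against 8.95 to 9.15 on the other arrays), and results that changed without these 3 arrays are given with that value.

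Of the 6 measured subunits, 4 fell, 1 rose and 1 did not pass. Cybb, Cyba, Rac2 and Ncf4 fell to 0.599, 0.616, 0.639 and 0.744 of their wild-type signal, and Noxo1 rose to 1.11 times it. The 6 differences had a median of -0.54, against 0.01 over all genes tested. Across all genes 30.0% were called, 12.9% lower and 17.1% higher. Each later count of called genes is to be read against these shares. The knockout and wild-type arrays did not overlap for 5 of the 6 subunits, as for 30.7% of all genes. The 4 falls were also called without the 3 arrays of low hybridization controls, and the rise was not.

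**Figure D1:**
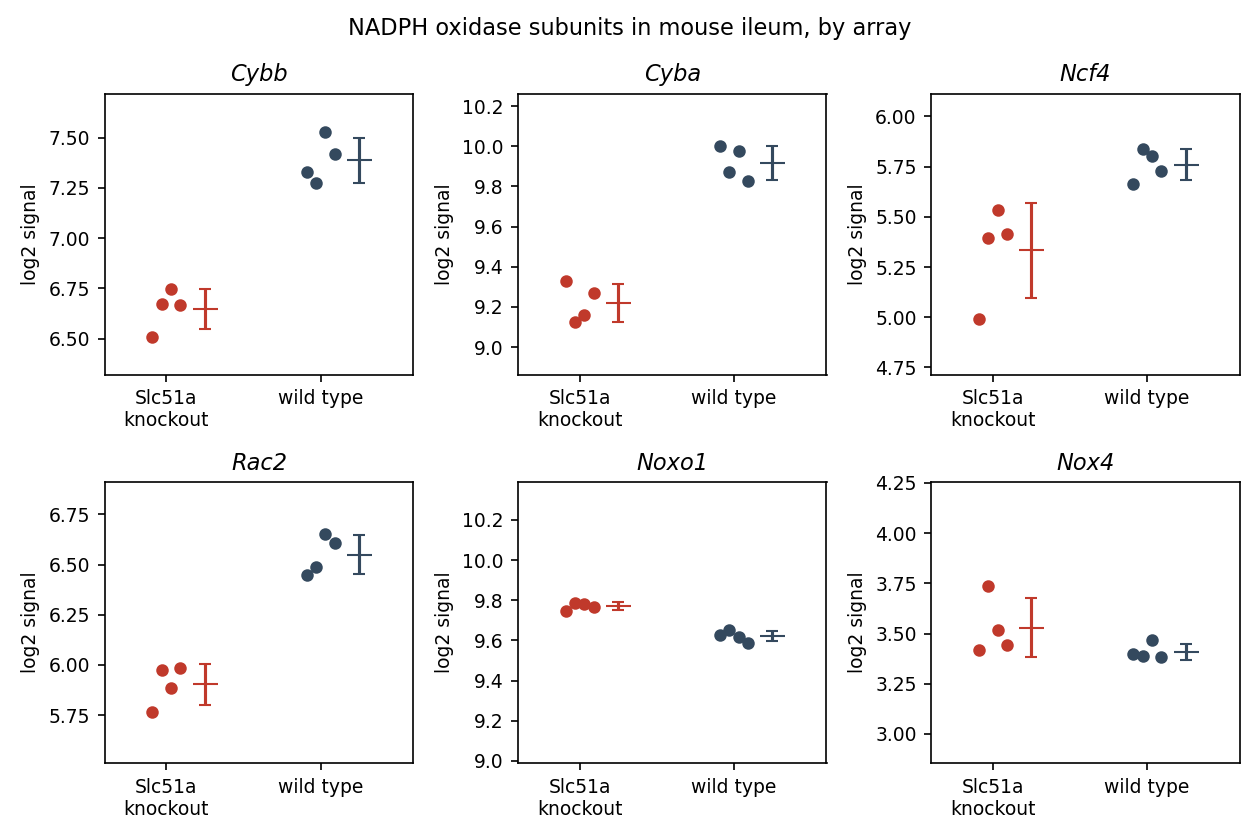
Log2 signal (vertical axis, 1.4 units in every panel) of the 6 measured NADPH oxidase subunits in each of the 4 Slc51a knockout and 4 wild-type arrays; points are arrays and bars are the mean ± SD. Knockout arrays lie below all wild-type arrays for Cybb, Cyba, Ncf4 and Rac2, lie above them by a small step for Noxo1, and overlap them for Nox4.

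Cybb, the catalytic subunit of the phagocyte oxidase, had log2 signals of 6.51, 6.67, 6.75 and 6.67 in knockout arrays, against 7.33, 7.27, 7.53 and 7.42 in wild-type arrays. Every knockout array was below every wild-type array, with a gap wider than the spread of either group. The fall was 0.74 on the log2 scale (difference -0.74, SE 0.07, adjusted p = 2.13e-05), or 0.599 of the wild-type signal. In whole tissue, fewer cells of a type and less RNA per cell cannot be told apart. In a fit over all 45037 probe sets, of which 21.6% were called and 9.81% called lower, the 3 Cybb probe sets were all called lower. None of them overlapped between genotypes, as was so for 23.8% of probe sets. The brightest gave the value above, and the other 2 changed by -0.28 (SE 0.05, adjusted p = 0.00135) and -0.32 (SE 0.07, adjusted p = 0.00681). Both dimmer probe sets were under 4.58, the median signal on these arrays, where this kind of normalised signal understates differences. With the mean of the 3 probe sets in place of the brightest, Cybb changed by -0.45 (adjusted p = 0.000100). The adjusted p of the probe set that changed by -0.32 was 0.0645 without the 3 arrays.

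Cyba, the membrane partner that Nox1, Cybb and Nox4 all need, had 1 probe set. It read 9.33, 9.12, 9.16 and 9.27 in knockout arrays, against 10.00, 9.87, 9.97 and 9.82 in wild-type arrays. The highest knockout array was below the lowest wild-type array by more than the range within either genotype. The difference was -0.70 (SE 0.06, adjusted p = 1.70e-05), or 0.616 of the wild-type signal. Since Cyba serves the epithelial and the phagocyte enzyme, this transcript belongs to neither side of the comparison between them.

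The RefSeq promoters of 4 of the 6 measured subunits were available (assembly GRCm38.p6, 250 bases before to 50 after the annotated start). Those of Cybb, Cyba and Noxo1 are shown because Cybb and Cyba, which form 1 membrane core, fell together and Noxo1 did not fall. Each is written along the strand of its gene, in lower case, with capitals for matches on either strand to GAGGAA (the core letters bound by the myeloid factor PU.1), the interferon regulatory factor element (GAAA, any 2 bases, then GAAA again) or GGGCGG (the Sp1 box). No matches overlap.
Cybb, chrX:9469275-9469574, minus strand: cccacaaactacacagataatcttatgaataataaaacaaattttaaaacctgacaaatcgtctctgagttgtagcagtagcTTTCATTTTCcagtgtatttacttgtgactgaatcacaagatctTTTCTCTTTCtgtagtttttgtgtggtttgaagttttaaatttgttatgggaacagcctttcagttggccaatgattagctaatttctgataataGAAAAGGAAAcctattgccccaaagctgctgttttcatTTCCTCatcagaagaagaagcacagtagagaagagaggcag
Cyba, chr8:122432891-122433190, minus strand: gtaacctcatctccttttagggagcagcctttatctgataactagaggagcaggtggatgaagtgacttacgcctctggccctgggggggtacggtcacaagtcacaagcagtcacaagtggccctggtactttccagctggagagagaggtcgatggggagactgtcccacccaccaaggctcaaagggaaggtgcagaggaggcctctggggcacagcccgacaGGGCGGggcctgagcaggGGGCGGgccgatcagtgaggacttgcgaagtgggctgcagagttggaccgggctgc
Noxo1, chr17:24695984-24696283, plus strand: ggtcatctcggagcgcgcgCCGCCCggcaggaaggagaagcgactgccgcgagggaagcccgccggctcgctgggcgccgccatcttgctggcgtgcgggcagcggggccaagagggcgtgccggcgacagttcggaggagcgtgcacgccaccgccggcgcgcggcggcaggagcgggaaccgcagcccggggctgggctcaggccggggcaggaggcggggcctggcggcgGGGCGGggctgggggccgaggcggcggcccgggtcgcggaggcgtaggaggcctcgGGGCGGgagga
The Cybb window held GAGGAA once, on the opposite strand at bases 10 to 15 after the start site, and the interferon regulatory factor element at 3 places, the nearest at -29 to -20. Of 32851 RefSeq promoter windows of this length, 28.3% held GAGGAA at least once and 3.44% held the interferon regulatory factor element. The Cyba and Noxo1 windows held neither and had 2 and 3 GGGCGG boxes, a pattern present in 35.7% of windows. These letter matches are descriptions of the sequence and not evidence of binding.

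Ncf4, a cytosolic subunit of the phagocyte enzyme that binds membrane phosphoinositides, had signals of 4.99, 5.39, 5.54 and 5.41 in knockout arrays, against 5.67, 5.84, 5.80 and 5.73 in wild-type arrays. The groups did not overlap, but knockout replicate 1 stood below the other knockout arrays, so the knockout spread (SD 0.24) was wider than the wild-type spread (SD 0.08). The difference was -0.43 (SE 0.10, adjusted p = 0.00799), or 0.744 of the wild-type signal. Without knockout replicate 1 it was -0.31, the smallest value on leaving out any 1 array, and it passed each time (highest adjusted p = 0.0260).

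Rac2, the Rac GTPase of blood cells, had signals of 5.77, 5.97, 5.89 and 5.98 in knockout arrays, against 6.45, 6.49, 6.65 and 6.60 in wild-type arrays. The lowest wild-type array was above the highest knockout array by more than the range within either group. The difference was -0.65 (SE 0.07, adjusted p = 3.80e-05), or 0.639 of the wild-type signal. The other Rac2 probe set was dim, at 3.66 in knockout and 3.71 in wild type, and its difference was -0.04 (95% interval -0.16 to 0.08, adjusted p = 0.652). The mean of both probe sets changed by -0.34 (adjusted p = 0.000274).

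Noxo1, the organiser subunit that keeps the Nox1 enzyme assembled at the membrane, had signals of 9.75, 9.79, 9.78 and 9.77 in knockout arrays, against 9.63, 9.65, 9.62 and 9.59 in wild-type arrays. The arrays of each genotype lay close together and the groups did not overlap, although the step between them was small. The difference was 0.15 (SE 0.04, adjusted p = 0.0175), or 1.11 times the wild-type signal. This call depended on the scaling: the difference was 0.09 with quantile normalisation (adjusted p = 0.112) and 0.06 with cyclic loess normalisation (adjusted p = 0.298). It also missed the threshold without wild type replicate 4 (0.14, adjusted p = 0.0522), without the 3 arrays of low hybridization controls (0.15, adjusted p = 0.0968) and with those controls as a covariate (0.13, adjusted p = 0.0821).

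Nox4, a constitutively active oxidase known from mesenchymal, endothelial and kidney cells, read 3.42, 3.74, 3.52 and 3.44 in knockout arrays, against 3.40, 3.39, 3.47 and 3.38 in wild-type arrays. Knockout replicate 2 was the highest, and the other knockout arrays lay among or near the wild-type ones. The difference was 0.12 (95% interval -0.03 to 0.27, adjusted p = 0.231), and it was 0.06 for the other probe set (95% interval -0.05 to 0.17). Without knockout replicate 2 the difference was 0.05. Both probe sets were under that median signal in each genotype, so expression of Nox4 is not shown and a difference could be understated. In the same arrays 5 of 9 smooth muscle and fibroblast markers fell, 1 rose and 3 did not pass, and 3 of 8 endothelial markers fell and 5 did not pass. Over all genes 12.9% fell and 17.1% rose. Myh11, the smooth muscle myosin, changed by -0.94 (SE 0.09) and Kdr, an endothelial growth factor receptor, by -0.32 (SE 0.07). The marker that rose, named after its values were seen, was the fibroblast receptor gene Pdgfra (0.20, SE 0.06), a call lost without the 3 arrays of low hybridization controls (adjusted p = 0.0693) and without any of knockout replicates 1 and 4 and wild type replicate 1. Pdgfra too was under that median signal (4.54 in knockout, 4.34 in wild type), so its expression is not shown. The part of these cells in the Nox4 signal was not tested.

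**Figure D2:**
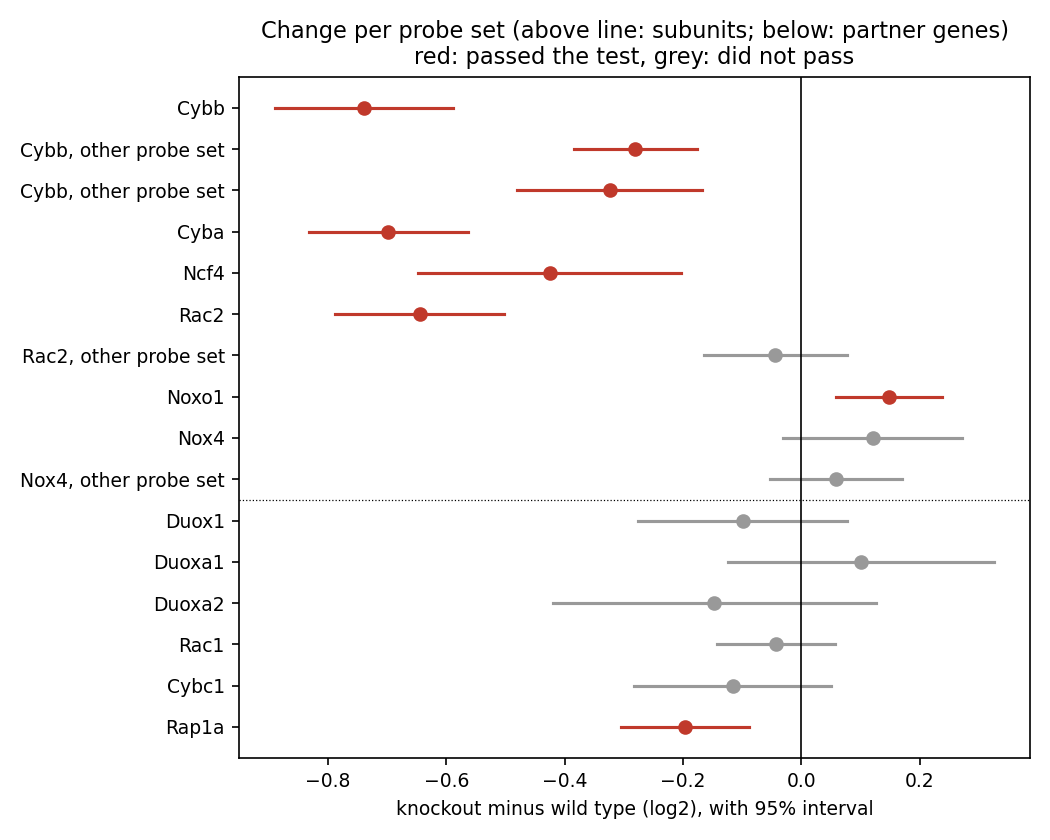
Knockout minus wild type (log2, horizontal axis) with 95% intervals for the 10 probe sets of the measured subunits (above the dotted line) and for 6 partner genes (below it); red passed the test and grey did not. The 3 Cybb probe sets, Cyba, Ncf4 and the brighter Rac2 probe set lie left of 0, Noxo1 lies right of it, and among the partner genes only Rap1a passed.

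Of 6 further genes of the enzyme complexes that were measured, Rap1a fell and 5 did not pass. The median difference of these 6 genes was -0.11. Over all genes 12.9% fell, so the count here is near that share. Rap1a, a GTPase that copurifies with the phagocyte membrane core, had signals of 7.31, 7.35, 7.42 and 7.44 in knockout arrays, against 7.60, 7.56, 7.63 and 7.52 in wild-type arrays, without overlap. It changed by -0.20 (SE 0.05, adjusted p = 0.0105). Cybc1, the chaperone needed for Cybb and Cyba protein, was at 6.98 ± 0.11 in knockout and 7.09 ± 0.13 in wild type (SD, n = 4 each), a difference of -0.12 (95% interval -0.28 to 0.05). So the chaperone transcript did not pass where the transcripts of both its clients did, a contrast between calls that was not itself tested.

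Rac1, the ubiquitous Rac GTPase that serves the epithelial enzyme, changed by -0.04 (95% interval -0.14 to 0.06) on its brightest probe set, whose suffix marks it as able to match more than 1 transcript. Another Rac1 probe set was called higher (0.25, SE 0.05, adjusted p = 0.00670 over all probe sets) and a dim one was not called (0.01), so its probe sets disagree. With cyclic loess normalisation the brightest one passed as lower (-0.14, adjusted p = 0.0255). Noxa1 and Nox3 were not analysed here.

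The DUOX branch could be followed only through its other members. Duoxa2, the maturation factor of Duox2, had signals of 5.53, 5.42, 5.16 and 5.31 in knockout arrays, against 5.69, 5.28, 5.26 and 5.78 in wild-type arrays. The groups overlapped widely, and the wild-type arrays formed a high and a low pair. The difference was -0.15 (95% interval -0.42 to 0.13, adjusted p = 0.432). Duox1, the paralogue of Duox2, differed by -0.10 (95% interval -0.28 to 0.08) and was under the median signal of the arrays. Duoxa1, its maturation factor, differed by 0.10 (95% interval -0.12 to 0.33), with knockout arrays from 4.59 to 5.18 on either side of the wild-type range of 4.69 to 4.84. Leaving out 1 array moved these values over -0.23 to -0.05 for Duoxa2, -0.17 to -0.03 for Duox1 and -0.003 to 0.19 for Duoxa1. The value nearest 0 came without wild type replicate 4 for Duoxa2, knockout replicate 4 for Duox1 and knockout replicate 3 for Duoxa1.

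Among 13 epithelial genes known to respond to microbes, often together with Duox2, 5 fell and 8 did not pass (12.9% of all genes fell). The serum amyloids Saa1 and Saa2 changed by -2.08 (SE 0.28) and -2.15 (SE 0.35), the lectin Reg3a by -1.44 (SE 0.10) and the chemokine Cxcl16 by -0.57 (SE 0.08). The brighter lectins Reg3b and Reg3g, named after their values were seen, differed by -0.09 and -0.14 and did not pass (adjusted p 0.285 and 0.138). The suffix of the Saa2 probe set marks it as able to match several transcripts, so the Saa1 and Saa2 values are not shown to be separate. Pigr, the receptor that carries immunoglobulin A into the lumen, was the other gene that fell (-0.26, SE 0.04), and it is named after its values were seen. Nos2, the inducible nitric oxide synthase, differed by -0.01 (95% interval -0.17 to 0.16). The list had a median of -0.18. The 4 haem peroxidases measured, enzymes that consume hydrogen peroxide, did not pass, with differences of -0.22 to 0.06.

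The epithelial and phagocyte sides were then compared directly. With Nox1 and Ncf1 not analysed, Noxo1 was set against each of the 3 measured phagocyte subunits, as the per-array log2 difference between them, with the wild-type mean set to 0. These 3 pairs were chosen after the annotation was read and with the single changes known.

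Noxo1 minus Cybb stood at 1.00, 0.88, 0.80 and 0.86 in knockout arrays, against 0.06, 0.14, -0.15 and -0.06 in wild-type arrays. The changes of the 2 genes thus differed by 0.89 (SE 0.08, for these pairs the ordinary SE of the per-array values, not that of limma). For Ncf4 the knockout arrays stood at 0.89, 0.53, 0.38 and 0.49 and the wild-type arrays between -0.05 and 0.10, a difference of 0.57 (SE 0.12). For Rac2 the knockout arrays stood between 0.71 and 0.90 and the wild-type arrays between -0.11 and 0.11, a difference of 0.79 (SE 0.07). In all 3 pairs every knockout array exceeded every wild-type array. This separation follows from the values above, since Noxo1 lay wholly higher and each partner wholly lower in knockout arrays, and the pairs share the Noxo1 values. The differences are therefore given as descriptions, with no p value.

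**Figure D3:**
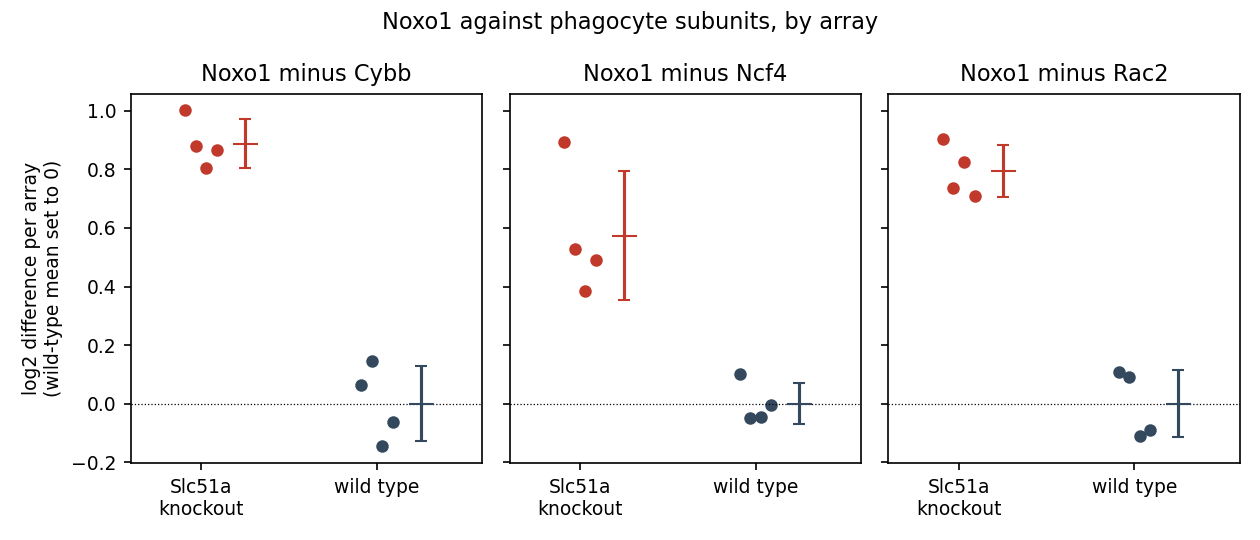
Per-array log2 difference between Noxo1 and each of Cybb, Ncf4 and Rac2 (vertical axis, wild-type mean set to 0) in 4 Slc51a knockout and 4 wild-type arrays; points are arrays and bars are the mean ± SD. Knockout arrays lie above all wild-type arrays in the 3 panels, by a mean of 0.89, 0.57 and 0.79.

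With quantile normalisation the differences were 0.86, 0.49 and 0.72, and with cyclic loess normalisation 0.84, 0.48 and 0.72 for Cybb, Ncf4 and Rac2. With the mean of probe sets the Rac2 value was 0.49. Noxo1 was the 1 measured subunit on the epithelial side, apart from Cyba, which both enzymes use.

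Markers of leukocytes and of smooth muscle moved with the phagocyte subunits. Of 12 pan-leukocyte markers, 11 fell and 1 did not pass, with a median of -0.70 (12.9% of all genes fell). Ptprc, the leukocyte phosphatase CD45, changed by -1.28 (SE 0.16), the actin regulator Coro1a by -1.08 (SE 0.17), Itgb2, the integrin chain shared by leukocyte adhesion receptors, by -0.78 (SE 0.09), and the lysosomal protein Laptm5 by -0.62 (SE 0.09). The summed linear signal of the list was 1269 to 1678 in knockout arrays and 2651 to 3079 in wild-type arrays. Cybb (-0.74) and Rac2 (-0.65) changed by amounts inside the range of these markers, -1.28 to 0.09, which is wide. Both values also lay inside the ranges of the T lymphocyte (-1.98 to -0.04) and B lymphocyte lists (-1.69 to 0.10). The same held for the macrophage and dendritic cell (-0.82 to 0.44) and the smooth muscle and fibroblast lists (-1.14 to 0.20). The ranges therefore do not single out a cell type. In the same arrays the smooth muscle genes Myh11 (-0.94, SE 0.09), Des (-0.95, SE 0.11) and Cnn1 (-1.14, SE 0.15) fell, with summed signals of 4404 to 5557 for their list in knockout and 6190 to 8376 in wild-type arrays. The part of either cell type in the changes of the phagocyte subunits was not tested.

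Lymphocytes also express Rac2, and B lymphocytes express Cybb. Of 9 T lymphocyte markers 7 fell and 2 did not pass, with a median of -0.24 (12.9% of all genes fell). Cd3g, a T cell receptor component, had the largest fall of the list (-1.98, SE 0.10), and Cd3e of the same receptor changed by -0.23 (SE 0.06). Of 8 B lymphocyte and plasma cell markers 5 fell and 3 did not pass, with a median of -0.50. Cd79b, a B cell receptor component, changed by -1.31 (SE 0.19), whereas its partner Cd79a differed by -0.27 and did not pass (adjusted p = 0.0667). Cd79a did pass as lower with array weights and without knockout replicate 4 or wild type replicate 1 (adjusted p 0.0328, 0.00812 and 0.0373). Summed signals of the T list were 319 to 344 in knockout and 506 to 553 in wild-type arrays. Those of the B list were 7943 to 9254 in knockout and 9838 to 9918 in wild-type arrays. Jchain (12.44 in knockout, 12.62 in wild type) and Xbp1 (11.41 in knockout, 11.57 in wild type) made up most of the B list sums. Those sums therefore say little of dimmer markers such as Cd79b.

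Macrophage and dendritic cell markers were mixed. Of 18, 7 fell, 2 rose and 9 did not pass, with a median of -0.16. As 12.9% of all genes fell and 17.1% rose, the 2 rises are not above their share. Summed signals were 10923 to 12059 in knockout and 13608 to 14119 in wild-type arrays. Lyz2 (13.15 in knockout, 13.31 in wild type) made up most of each sum, with Ctss next (10.45 in knockout, 11.26 in wild type). The sums therefore say little of the dimmer markers. Ctss, a cathepsin of antigen-presenting cells, changed by -0.82 (SE 0.05), the perforin-like Mpeg1 by -0.60 (SE 0.11) and the integrin Itgax by -0.48 (SE 0.06). The defining macrophage markers Csf1r, the growth factor receptor of macrophages, Adgre1, which encodes F4/80, and the endosomal protein Cd68 differed by -0.07, -0.12 and -0.25 and did not pass. Cd68 was under the median signal of the arrays (4.21 in knockout, 4.46 in wild type), so its difference could be understated. Without the 3 arrays of low hybridization controls, Csf1r (-0.24, adjusted p = 0.0449) and Cd68 (-0.42, adjusted p = 0.00793) passed as lower. Cd68 also passed without knockout replicate 3 (-0.31, adjusted p = 0.0166) and without wild type replicate 2 (-0.30, adjusted p = 0.0312), and with a trended robust prior, array weights or the replicate block (adjusted p 0.0371, 0.0490 and 0.0267). The 2 that rose, named after their values were seen, were Cd14, the endotoxin coreceptor (0.44, SE 0.08), and Mrc1, the mannose receptor (0.40, SE 0.11). Mrc1 did not pass without the 3 arrays (0.26, adjusted p = 0.259), nor without any of knockout replicates 1 and 3 and wild type replicate 2 (adjusted p 0.0502 to 0.0530). The changes of Cybb and of these defining markers were not compared by a test.

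Neutrophils hold much of the phagocyte oxidase of blood, but 7 of 10 neutrophil and eosinophil markers were under the median signal in each genotype. S100a8, an abundant neutrophil protein, was at 3.31 in knockout and 3.24 in wild type. Of the list 1 fell, the eosinophil lectin Siglecf (-0.66, SE 0.15), and 9 did not pass. This count is near the 12.9% of all genes that fell. Summed signals were 187 to 199 in knockout and 195 to 208 in wild-type arrays.

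On the epithelial side, 3 of 12 markers rose, 2 fell and 7 did not pass, with a median of -0.07 and summed signals of 46141 to 48532 in knockout and 46882 to 48467 in wild-type arrays. Over all genes 17.1% rose and 12.9% fell. Cdx1, an intestinal transcription factor, rose by 0.37 (SE 0.06) and the keratin Krt18 by 0.26 (SE 0.05), whereas Vil1, the brush border protein villin, changed by -0.24 (SE 0.04). The remaining called markers, chosen once their values were known, comprised the keratin Krt19 (0.22, SE 0.04) and Cdh1, the adhesion protein E-cadherin (-0.16, SE 0.04). Krt19 did not pass with cyclic loess normalisation (0.12, adjusted p = 0.0551), nor Cdh1 without the 3 arrays (adjusted p = 0.107) or with the hybridization controls as a covariate (adjusted p = 0.0513). The counts moved with the scaling, to 3 higher and 5 lower with quantile normalisation and 2 higher and 6 lower with cyclic loess. Noxo1, at 0.15, lay within the range of these markers, -0.24 to 0.37, and also within that of the macrophage and dendritic cell markers, -0.82 to 0.44.

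**Figure D4:**
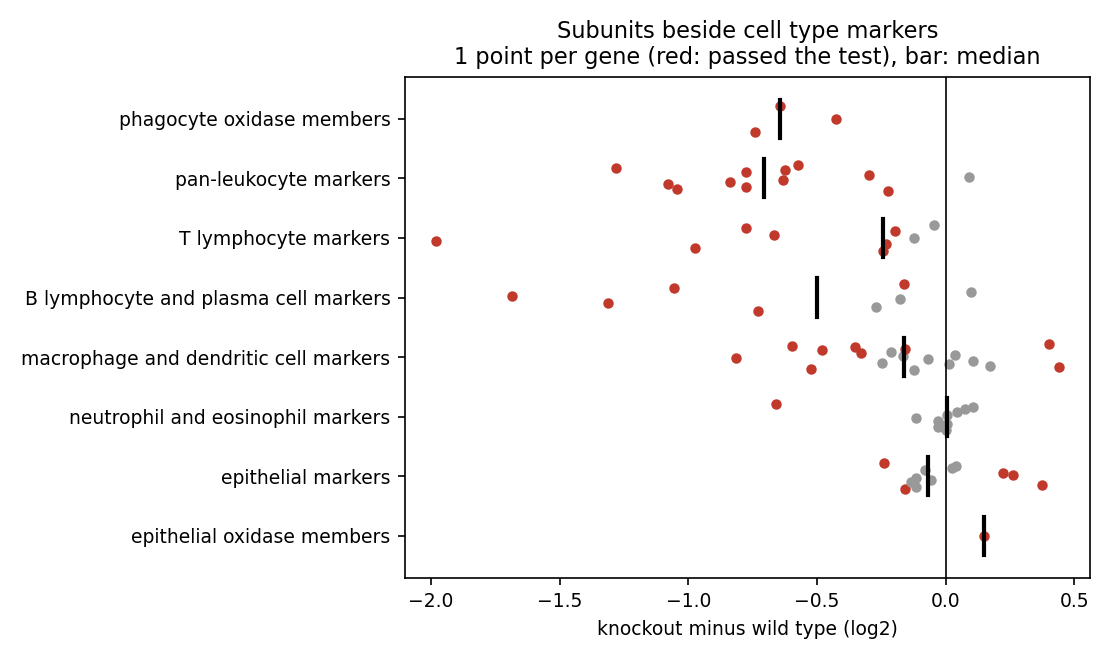
Knockout minus wild type (log2, horizontal axis) for each gene of the oxidase groups and of cell type marker lists; points are genes, red where they passed the test, and black bars are medians. The 3 phagocyte subunits lie among the pan-leukocyte markers (median -0.70), neutrophil markers centre on 0.00, and Noxo1 lies among the epithelial markers (median -0.07). The 3 phagocyte subunits also lie within the ranges of the T lymphocyte, B lymphocyte and macrophage lists, and Noxo1 within that of the macrophage list.

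Genes tied to oxidase activation, among them an inhibitor of Rac proteins, moved in part with the phagocyte subunits. Of 11 measured, 4 fell, 1 rose and 6 did not pass (median -0.14). As 12.9% of all genes fell and 17.1% rose, the 1 rise is not above its share. Prkcd and Prkcb, kinases that phosphorylate the cytosolic subunits, changed by -0.62 (SE 0.07) and -0.87 (SE 0.20), and Arhgdib, the leukocyte inhibitor that holds Rac proteins in the cytosol, by -0.77 (SE 0.09). Hvcn1, the proton channel that balances the charge moved by the oxidase, changed by -0.63 (SE 0.15). The gene that rose was P4hb, a protein disulphide isomerase also abundant in secretory cells (0.14, adjusted p = 0.0469). Its call was lost on leaving out any single array other than wild type replicate 2, and with quantile (adjusted p = 0.0846) and cyclic loess normalisation (adjusted p = 0.555). Hvcn1 and P4hb are named after their values were seen. Vav1, an exchange factor for Rac in leukocytes, differed by -0.08 (adjusted p = 0.240), but its mean over probe sets passed as lower (adjusted p = 0.00999).

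Of 5 measured transcription factors known to act on the Cybb promoter, 3 fell and 2 did not pass (12.9% of all genes fell). Irf1 changed by -0.66 (SE 0.08, adjusted p = 0.000176), Irf8 by -0.32 (SE 0.10, adjusted p = 0.0317) and Elf1 by -0.20 (SE 0.05, adjusted p = 0.0103). Irf1 and Irf8 belong to the family that binds the interferon regulatory factor element shown in the Cybb window. Whether either has a part in the change of Cybb was not tested. Irf8 missed the threshold on leaving out any of knockout replicates 1, 2 and 3 and wild type replicates 1 and 4 (adjusted p 0.0522 to 0.0883). It also missed it with the mean of probe sets (adjusted p = 0.0736) and once the hybridization controls entered as covariate (adjusted p = 0.155), and Irf8 and Elf1 missed it without the 3 arrays (0.0691 and 0.144). Spi1, which encodes PU.1, differed by -0.02 (adjusted p = 0.898). Its signal, 4.76 in knockout and 4.78 in wild type, was close to the median of 4.58.

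Likeness of pattern was described by Pearson's r over the 8 arrays after subtracting each genotype's mean, among 10924 genes at or above the median signal. Closest to Cybb were the leptin receptor Lepr (r = 0.98), which fell by 0.69 on the log2 scale, the multimerin Mmrn1 (r = 0.97) and the polymerase subunit Rev3l (r = 0.96), neither of which passed. Closest to Noxo1 were Ccdc88c, the sterol reductase Dhcr7 and the lipid flippase Atp8b1 (r = 0.97 each). The points share array, scaling and background, and the ranking over so many genes from 8 arrays is a description only.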

How the data were processed

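Total RNA of 8 ileum samples (250 ng each), labelled as biological replicates, was hybridised to Affymetrix 3' arrays. The values are log2 signals that the authors deposited after RMA, per the submitters' processing notes. RMA estimates background and equalises array distributions, which compresses low signals. Its version and settings are not given in the sources used here, detection calls were not used, and signal limits precision at the low end.

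Of 45037 non-control probe sets, 28898 carry 1 gene symbol, 551 several and 15588 none in the platform annotation. The symbols were updated through Entrez identifiers to RefSeq GRCm38.p6. Each gene was represented by its single-symbol probe set with the highest mean over all arrays (17097 genes), and all probe sets were also fitted. limma 3.58.1 (R 4.3.3; lmFit, eBayes, 2-sided) tested knockout minus wild type, with Benjamini-Hochberg adjustment over the whole table and a threshold of 0.05. On simulated data of 17097 genes it recovered 42% of changes of 0.25, 86% of 0.5 and 100% of 1 and 2 (log2). There were 50 changes of each size and 7 false calls. The changed genes were a far smaller share than the 30.0% called in these data, so the rates need not hold for this comparison.

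The members and lists were chosen with earlier results of these data known. Named genes are all measured members and partner genes and, from each other list, up to 3 with the smallest adjusted p among those called and the first 3 listed. The planned tests of Nox1 against Cybb and Noxo1 against Ncf1, and the likeness to Nox1 and Duox2, were replaced by the Noxo1 comparisons because those genes were not analysed here. Replicate numbers were checked as pairs: deviations of same-numbered arrays correlated at 0.24, -0.10, 0.08 and 0.16, so the numbers were not treated as pairs. Strip and scan date were not used here. Alternatives covered normalisation, dim genes, the choice of probe set, the prior, array weights, the replicate block, each array left out, the hybridization controls and the threshold.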

Additional observations from a re-analysis of the deposited data

How the results depend on the processing

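Across the alternatives run, Cybb, Cyba, Ncf4 and Rac2 were called lower in each of 20, and no result changed sign while called. The Noxo1 difference was positive in all 20 (0.06 to 0.17) and called in 14. The number of subunits called higher by limma was 0, against 1, with quantile and cyclic loess normalisation, without the 3 arrays of low hybridization controls, with those controls as a covariate and at a threshold of 0.01. At an unadjusted p below 0.05 it was 1 in each of these except cyclic loess (0). Leaving out 1 array gave 0 to 1 subunits, with 0 without wild type replicate 4. Of the probe sets of the subunits, the count called higher was 0 in the same 5 settings and with the replicate number as a block. It ran from 0 to 1 on leaving out 1 array, with 0 without knockout replicates 2 or 3 or wild type replicates 3 or 4. With the replicate block, 5190 genes were called and Noxo1 had an adjusted p of 0.0428 among genes and 0.0557 among probe sets, and the counts of subunit genes were 1 higher and 4 lower as before. Partner genes called lower numbered 2 with cyclic loess and 0 at 0.01, against 1. All genes called lower numbered 1414 without the 3 arrays and 1446 at 0.01, against 2210. The differences between Noxo1 and Cybb, Ncf4 and Rac2 ran over 0.84 to 0.94, 0.47 to 0.64 and 0.76 to 0.83 with 1 array left out. Without the 3 arrays they were 0.99, 0.69 and 0.85. The share of higher calls among all calls was 57.0%, against 55% with quantile, 62.7% with median centring and 48.8% with cyclic loess. The tests of Nox1 against Cybb and of Noxo1 against Ncf1, with their paired versions, were not run. The 4 arrays a genotype limit the precision of changes as small as that of Noxo1, and dim probe sets such as those of Nox4 limit it further.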
